A study of Rattus norvegicus with 4 samples.

Results

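Translation initiation factors are the proteins that bring the initiator tRNA, the small ribosomal subunit and the 5′ end of an mRNA together, and their genes were examined in rat cochlear lateral wall treated with 3-nitropropionic acid (3-NP), which blocks succinate dehydrogenase in mitochondria. The members are all genes with a probe set of a single symbol whose symbol starts with Eif1 to Eif6, leaving out Eif2ak2, the antiviral kinase gene. They were 47 of the 13810 genes named on the arrays. Of these, 45 had 51 probe sets on the day 1 arrays, 20 had 27 probe sets on the day 3 arrays, and 18 were on both. RefSeq lists 59 protein-coding rat genes under the same symbol rule, including the 47. Probe sets that pair such a symbol with another gene, 4 at day 1 and 2 at day 3, are not members.

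All animals were female Sprague-Dawley rats of 8 to 10 weeks and 180 to 210 g, whose left round window niche received the solution under anaesthesia and whose right cochlea was destroyed by surgery. The 4 groups were saline and 300 mM 3-NP, each taken 1 day and 3 days later, with 1 array per group, so no value has a replicate error and no test between groups was possible. One label field places the tissue in the upper basal turn and another in the second turn with the stria vascularis removed, and how many animals gave RNA to an array is not stated in them. Each day had its own array design, so signals are never set against each other across days.

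Initiation starts with eIF2, which carries the initiator tRNA, and with eIF1, eIF1A, eIF3 and eIF5 on the small ribosomal subunit. The eIF4 factors bind the cap and unwind the mRNA leader, and eIF5B joins the large subunit. Cells slow initiation in 2 main ways, by phosphorylating the alpha subunit of eIF2, which then blocks its exchange factor eIF2B, and by eIF4E-binding proteins that keep the cap-binding protein eIF4E from eIF4G when mTORC1 is inactive. Most of this control acts on proteins, which arrays do not measure.

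The deposited values are MAS5 signals, a brightness per probe set on a linear scale. Median signals of the day 1 arrays were 44.9 in saline and 60.7 in 3-NP, and the median gene had a log2 ratio of 3-NP over saline of 0.44 at day 1 and 0.10 at day 3. Ratios below are therefore log2 ratios relative to the median gene of that day, called relative ratios, unless written as deposited. A gene counted as measured where its signal reached the array median in at least 1 array of the pair, and it is represented by its brightest probe set. Genes with several probe sets gave an SD of 0.35 at day 1 and 0.47 at day 3 for the log2 ratio of 1 probe set. This is a spread between probe sets, not between animals, and smaller differences of a single gene are not read as differences. Counts of genes above or below the median gene include values within this SD.

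Among lateral wall markers on the day 1 arrays the fibrocyte gene list was present throughout, with none of its 9 genes at the floor in both arrays. Its summed signal went from 12745 in saline to 7822 in 3-NP. The sums use deposited signals without centring, so the brightest genes weigh most. Relative to the median gene 7 of the 9 were lower, while Vim was at 0.79 and Slc4a7 at 1.22. Slc4a7 passed the filter only through 3-NP. The summed signal of 10 macrophage and monocyte markers was 1498 and 3045 in the same order, with Aif1, Itgam and Ptprc at the floor in both. Of the 5 measured, Lgals3 was at 2.47, Cd14 at 1.54, Cd68 at 0.34, Lyz2 at 0.23 and Csf1r at -0.06. Cd14 and Cd68 passed the filter only through 3-NP. The summed signal of the 6 stria and melanocyte markers was 2325 and 1161, with Kcnj10 at the floor in both. At day 3 the sums were 6917 in saline and 5854 in 3-NP for 3 fibrocyte markers, 3943 and 2302 for 5 stria and melanocyte markers, and 85.7 and 43.5 for 2 macrophage markers, with none at the floor in both. The brightest stria and melanocyte marker was Atp1b2, with 2881 and 1356. Relative to the median gene 3 of these 5 were lower, while Pmel was at 0.15 and Tyrp1 at 2.81. The Tyrp1 value is a bound, since its saline signal lay under the floor, and it passed the filter only through 3-NP. Summed day 1 signals of 4 endothelial markers were 208 in saline and 565 in 3-NP, and those of 5 bone and cartilage markers 645 and 407. The 5 neuron and Schwann markers summed to 4370 and 4849, with Prph at 1.54, Tubb3 at 1.34 and Sncg at -1.64 relative to the median gene. Prph and Tubb3 passed the filter only through 3-NP, where they are high. A dimmer Tubb3 probe set gave 15.2 in saline and 12.7 in 3-NP, each below the floor of its array. By their brightest probe sets, none of these 3 lists had a gene at the floor in both arrays. The part that such shifts have in the values below was not tested, and in bulk tissue fewer cells of a type and less RNA per cell cannot be told apart. The 3′ over 5′ signal ratios of the control transcripts lay between 2.53 and 3.22 for Actb and between 1.17 and 1.46 for Gapdh over the 4 arrays.

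The promoters of 4 members are shown because the results turn on their genes. Eif5a and Eif4a1 had the highest relative ratios at day 1, and Eif3b was the highest eIF3 subunit. Eif4a2, the paralog of Eif4a1, lay at the median gene at day 1 (0.03) but at 0.74 at day 3 on another probe set. Each line gives the 250 bases upstream of the RefSeq start, 5′ to 3′ in the direction of the gene. Capitals mark the E-box CACGTG, the site bound by Myc and Max, and the CCAAT box, on either strand (ATTGG where it lies on the other strand).
Eif5a (GRCr8, chr10:55143222-55143471, minus strand): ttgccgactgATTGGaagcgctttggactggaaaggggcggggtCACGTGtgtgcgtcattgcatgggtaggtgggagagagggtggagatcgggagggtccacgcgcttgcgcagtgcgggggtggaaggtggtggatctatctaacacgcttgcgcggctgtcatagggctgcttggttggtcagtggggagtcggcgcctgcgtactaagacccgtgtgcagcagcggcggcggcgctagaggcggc
Eif4a1 (GRCr8, chr10:54888603-54888852, minus strand): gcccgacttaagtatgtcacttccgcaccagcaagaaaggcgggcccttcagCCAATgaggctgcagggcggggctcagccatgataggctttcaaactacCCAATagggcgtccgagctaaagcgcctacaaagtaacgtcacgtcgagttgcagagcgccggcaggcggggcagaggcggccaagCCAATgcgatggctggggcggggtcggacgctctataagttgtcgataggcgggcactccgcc
Eif4a2 (GRCr8, chr11:91275324-91275573, minus strand): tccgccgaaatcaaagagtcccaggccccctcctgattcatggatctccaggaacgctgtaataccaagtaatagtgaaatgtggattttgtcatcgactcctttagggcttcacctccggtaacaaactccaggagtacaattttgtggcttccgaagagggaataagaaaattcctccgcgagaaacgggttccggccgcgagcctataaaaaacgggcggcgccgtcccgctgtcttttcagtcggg
Eif3b (GRCr8, chr12:19334769-19335018, minus strand): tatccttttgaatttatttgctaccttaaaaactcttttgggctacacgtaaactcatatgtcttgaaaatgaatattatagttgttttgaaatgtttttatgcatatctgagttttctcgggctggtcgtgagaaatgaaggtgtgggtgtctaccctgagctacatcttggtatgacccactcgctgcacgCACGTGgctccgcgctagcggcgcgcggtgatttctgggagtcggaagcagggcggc

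In these letters Eif5a held 1 E-box and 1 CCAAT box, Eif3b held 1 E-box, Eif4a1 held 3 CCAAT boxes and no E-box, and Eif4a2 held neither. Of 47 members, 43 had a promoter in the table, in 46 windows. An E-box was found in 8 of the 46 windows (17.4%), those of Eif1b, Eif3b, Eif3f, Eif4e, Eif4g1, Eif4h, Eif5a and Eif5a2. The share was 8.44% of 6022 windows of genes measured at day 1 and 5.59% of all 33469 windows in the table. Of the 8, 7 were measured at day 1, of which 6 lay between 0.40 and 1.56 and Eif1b at -0.22, while Eif5a2 had no probe set on that design. Above the median gene were thus 6 of 7, near the 37 of 43 of all measured members. Of the 6 members at least 2-fold higher at day 1, 2 held an E-box, Eif3b and Eif5a. A link between the E-box and the ratios was not tested. The CCAAT box was in 13 of 46 windows (28.3%) and in 35.4% of those of measured genes. The core of the ATF4 and C/EBP composite site, TGATGNAAN, searched on both strands, was in the Eif2s2 window alone among members and in 1.64% of windows of measured genes. The matches in the 4 windows shown do not overlap one another, and a match is a description of the sequence. Median GC content was 59.8% in member windows and 60.8% in windows of genes measured at day 1.

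At day 1 the initiation factor genes as a group lay above the median gene, with no member well below it. Of the 43 measured members, 37 lay above the median gene, where 50% of all genes do by construction, and the member median was 0.42. Centred on the probe sets that both designs carry, 33 of 43 lay above 0. At least 2-fold higher relative to the median gene were 6 of 43, or 14.0%, against 7.76% of all 6533 measured genes. These were Eif5a, Eif4a1, Eif1a, Eif6, Eif1ad and Eif3b. At least 1.5-fold higher were 16, or 37.2%, against 17.1% of all genes. At least 2-fold lower were 0 members against 6.47% of all genes, and at least 1.5-fold lower 0 against 16.6%. The lowest member, Eif4g3, was at -0.28. As deposited, all 43 had a higher signal in 3-NP, as did 76.9% of all genes, with a median of 0.86, 16 members at least 2-fold higher against 17.9% of all genes and 30 at least 1.5-fold higher against 40.2%. As deposited 0 members were 2-fold or 1.5-fold lower, against 2.62% and 6.09% of all genes.

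**Figure D1:**
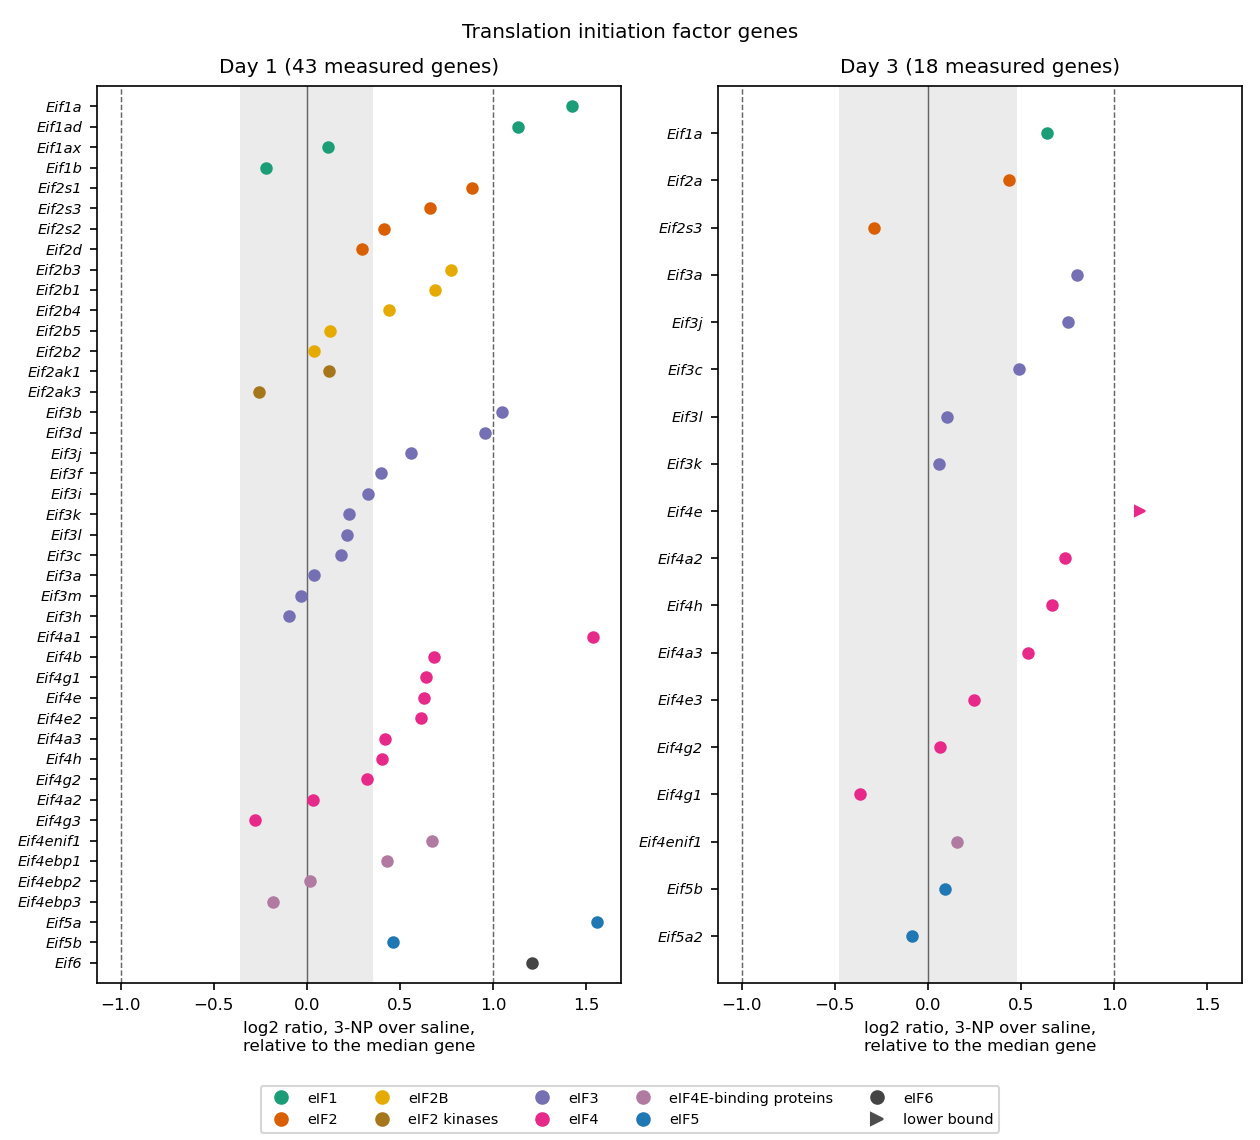
Relative log2 ratio of 3-NP over saline for each measured initiation factor gene at day 1 (left) and day 3 (right), coloured by factor; the solid line is the median gene, dashed lines are 2-fold from it, the grey band is 1 SD of a single probe set (0.35 and 0.47), and the triangle is a lower bound. At day 1 most points lie to the right of 0, 6 pass the right dashed line and none comes near the left one.

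Beyond 1 SD of a single probe set from the median gene were 24 members on the higher side and 0 on the lower side at day 1, against 27.9% and 27.5% of all genes, and 19 lay within it. All 43 reached the median of both day 1 arrays, so none was counted through 1 array alone. The 2 members that were not measured at day 1, Eif2ak4 and Eif4e3, had signals below the array median in both arrays, 42.3 and 45.3 for Eif2ak4 and 22.8 and 43.7 for Eif4e3.

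Among the Eif1 genes, Eif1a and Eif1ax differed at day 1, though whether their probe sets tell these relatives apart was not tested. Eif1a, which encodes eIF1A, a factor of start codon scanning, gave signals of 115 (saline) and 421 (3-NP), or 1.43 as a relative ratio. The related gene Eif1ax, with 158 in saline and 232 in 3-NP, was at 0.11, and Eif1b, a paralog of eIF1, at -0.22 with 233 and 271. The 3-NP signal was the higher one for all 3, but only that of Eif1a exceeded the shift of the median gene by more than the probe set SD. Eif1ad, whose product shares the eIF1A fold, had 50.8 in saline and 151 in 3-NP (1.13), and came to 0.93 when a pseudocount of 16 replaced the floor.

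The 3 subunits of eIF2 were all above the median gene. Eif2s1, which encodes the alpha subunit that stress kinases phosphorylate, had 143 in saline and 359 in 3-NP (0.89). The gamma subunit gene Eif2s3, which encodes the GTPase, had 65.5 and 141 (0.66), and the beta subunit gene Eif2s2 had 497 and 900 (0.42). Eif2d, which encodes a tRNA-delivering factor outside the eIF2 complex, was at 0.30 with 79.1 and 132, within the probe set SD.

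All 5 subunits of eIF2B, the exchange factor that reloads eIF2 with GTP, lay above the median gene at day 1, but not evenly. Eif2b3 had 45.4 in saline and 105 in 3-NP (0.77), Eif2b1 had 68.0 and 149 (0.69), and Eif2b4 had 189 and 348 (0.44). The catalytic epsilon subunit gene Eif2b5 had 79.7 and 118 (0.13) and Eif2b2 had 161 and 224 (0.04), both within the probe set SD. Centred on the 100 probe sets that both designs carry, Eif2b2 came to -0.0025, the only eIF2B subunit below 0. A dim probe set of Eif2b5, below the filter, gave 0.53.

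Of the member kinase genes of eIF2, which leave out Eif2ak2, 2 were measured at day 1 and neither gave a clear direction. Eif2ak3, which encodes PERK, the kinase of endoplasmic reticulum stress, had 58.9 in saline and 66.8 in 3-NP, which is -0.26 relative to the median gene and 0.18 as deposited. Eif2ak1, the gene of the heme-regulated kinase HRI, had 132 and 195 by its brightest probe set (0.12) and 165 and 145 by another of nearly the same brightness (-0.63), so the arrays give no direction for it. Eif2ak4, the gene of the amino acid sensor GCN2, gave -0.34 below the filter. On the phosphatase side, Ppp1r15a, which encodes the stress-induced subunit GADD34 that directs phosphatase to eIF2, had 121 in saline and 581 in 3-NP (1.83), and its constitutive counterpart Ppp1r15b had 116 and 177 (0.17).

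The multisubunit scaffold eIF3 was spread by subunit. Of 11 measured subunit genes 9 lay above the median gene, with a median of 0.23, from -0.10 for Eif3h to 1.05 for Eif3b. Eif3b, which encodes the WD-repeat scaffold subunit, had 176 in saline and 494 in 3-NP. Eif3d, whose product can bind the cap itself, had 255 and 672 (0.96), and the loosely bound Eif3j had 144 and 287 (0.56). By contrast Eif3h had 745 and 943, Eif3m had 525 and 696 (-0.03) and Eif3a, the largest subunit, had 279 and 388 (0.04, or -0.0029 when centred on the probe sets of both designs).

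Sorted by the structure of their products, a split chosen after the values were seen, the 7 measured subunits with PCI or MPN domains (Eif3a, Eif3c, Eif3f, Eif3h, Eif3k, Eif3l and Eif3m) ranged from -0.10 to 0.40 with a median of 0.18. The other 4 (Eif3b, Eif3d, Eif3i and Eif3j) ranged from 0.33 to 1.05 with a median of 0.76. These day 1 ranges overlapped, since Eif3f, with 559 in saline and 999 in 3-NP (0.40), lay above Eif3i, with 401 and 682 (0.33). As the split followed the values, the medians describe it and do not test it. At day 3 the PCI subunit gene Eif3a (0.80) lay above Eif3j (0.75), the 1 measured subunit gene of the other kind.

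**Figure D2:**
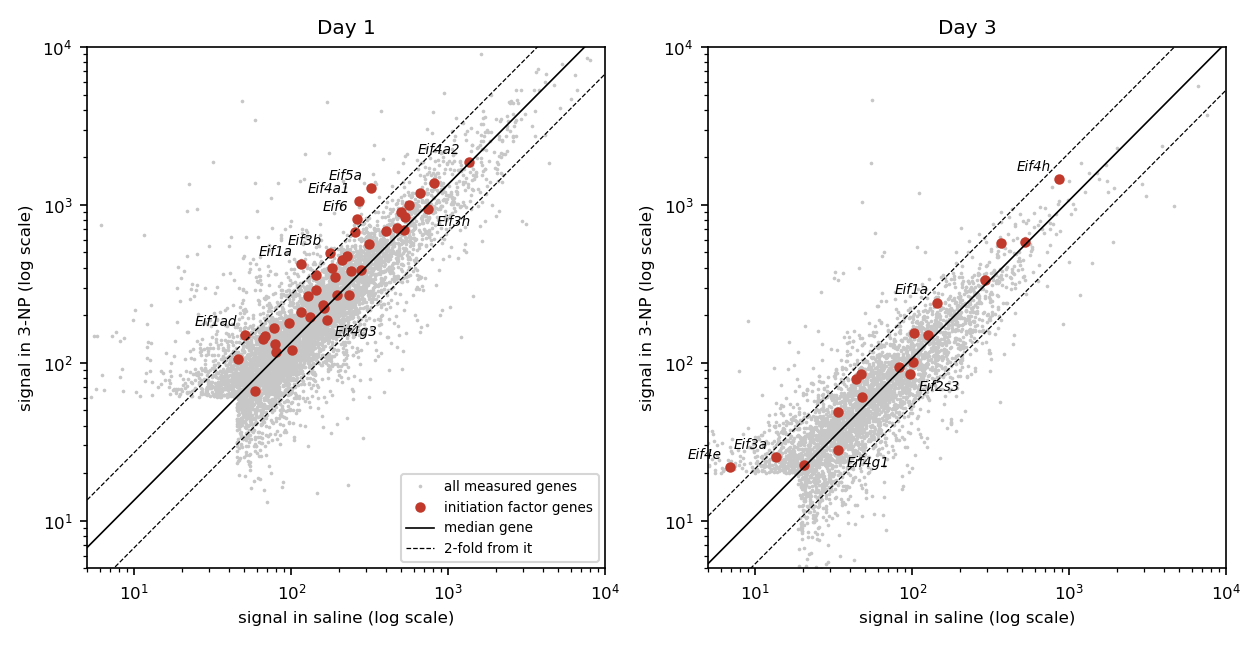
Signal in 3-NP against signal in saline on log axes for all measured genes (grey, those between 5 and 10000) and the initiation factor genes (red), with the median gene (solid line) and 2-fold from it (dashed lines), at day 1 and day 3. The day 1 members form a band along and above the median line, with Eif5a and Eif4a1 farthest from it.

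Within eIF4A, the RNA helicase of the cap complex, the 2 cytoplasmic paralogs differed at day 1. Eif4a1 had 268 in saline and 1056 in 3-NP, 2.90-fold higher relative to the median gene (1.54). Eif4a2 had 1346 and 1866, a relative ratio of 0.03 that turned to -0.03 after lowess and -0.01 under quantile normalization. The relative ratios differed by 1.505, where the SD of the difference between 2 probe sets of 1 gene was 0.50, and each rests on 1 probe set. Eif4a3, the helicase of the exon junction complex, lay between them, with 311 and 565 (0.42).

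Cap binding and scaffold genes were mostly above the median gene. Eif4e, which encodes the cap-binding protein, had 225 in saline and 473 in 3-NP (0.63), and Eif4g1, the main scaffold gene, had 211 and 446 (0.64). Each also had a dim probe set below the filter, which gave -0.39 for Eif4e and -0.15 for Eif4g1. Eif4e2, whose product binds caps and represses translation, had 128 and 267 (0.61). The helicase cofactor genes were Eif4b, with 182 and 396 (0.69), and Eif4h, with 660 and 1184 (0.40). Another measured Eif4b probe set gave 0.12.

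The other scaffold genes stayed near the median gene. Eif4g2, which encodes the cap-independent scaffold DAP5, had 808 in saline and 1370 in 3-NP by 1 probe set (0.32) and 753 and 849 by another (-0.27). Eif4g3 had 168 and 188 (-0.28).

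The proteins that restrain eIF4E gave a mixed picture. Eif4ebp1 had 116 in saline and 211 in 3-NP (0.43), Eif4ebp2 had 195 and 267 (0.02) and Eif4ebp3 had 100 and 120 (-0.18). Eif4enif1, the gene of the 4E-T transporter that takes eIF4E into the nucleus and to P-bodies, had 77.1 and 167 (0.67). Of the 4, Eif4enif1 alone was 1.5-fold from the median gene.

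The Eif5 and Eif6 genes, members by symbol and not by a shared step, held the highest member. Eif5a, which encodes the hypusine-containing factor that helps ribosomes through difficult peptide bonds, had 321 in saline and 1283 in 3-NP, 2.95-fold higher relative to the median gene (1.56). The genes of the 2 enzymes that make hypusine were also above the median gene, Dhps with 90.9 and 195 (0.66) and Dohh with 116 and 226 (0.52). Eif5b, the gene of the subunit-joining GTPase, had 96.3 and 180 (0.46). Eif6, whose product matures the large subunit and holds it from the small one, had 260 and 816 (1.21). Over all normalizations, floors and filters tried other than no centring, the relative ratio stayed between 1.52 and 1.64 for Eif5a, 1.497 and 1.61 for Eif4a1, 1.34 and 1.503 for Eif1a, 1.17 and 1.29 for Eif6, and 1.01 and 1.12 for Eif3b.

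Other genes of the translation machinery were taken from lists written down for this purpose. Elongation and release factor genes lay above the median gene as well, with a median of 0.66 over 15 genes, 8 at least 1.5-fold higher (53.3% against 17.1% of all genes), 2 of them at least 2-fold (13.3% against 7.76%), and 2 at least 2-fold lower (13.3% against 6.47%). The 2 higher were Eef1a2, an elongation factor gene of muscle and neurons, with 130 in saline and 492 in 3-NP (1.48), and the ribosome rescue gene Pelo, with 70.9 and 213 (1.15). The 2 lower were Eef2k, the kinase gene that halts elongation through eEF2, with 62.5 and 36.6 (-1.21), and the release factor gene Gspt2, with 54.6 and 34.8 (-1.09). Both passed the filter only through the saline array, where they are high. Of the other Eef2k probe sets, all below the filter, 2 gave -0.28 and -0.30 and 1 lay under the floor on both arrays.

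The mTORC1 and S6 kinase list was centred on the median gene, at -0.06 over 19 genes, with 1 gene at least 2-fold higher and 1 lower, or 5.26% each way, below the 7.76% and 6.47% of all genes. The higher was Ddit4l, which encodes an mTORC1 inhibitor, with 20.5 in saline and 78.8 in 3-NP (1.501), and the lower was Sesn1, with 94.2 and 58.3 (-1.13). Each passed the filter only through the array where it is high, Ddit4l through 3-NP and Sesn1 through saline. Ddit4, the stress-induced mTORC1 inhibitor gene, was at 0.23 with 111 and 176.

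Regulators of eIF4F had a median of -0.04 over 14 genes, turning to 0.40 as deposited. Pdcd4, which encodes an inhibitor of eIF4A, had 62.0 in saline and 31.4 in 3-NP (-1.42), opposite to Eif4a1, though it passed the filter only through saline. It was the only 1 of the 14 that was 2-fold from the median gene, where 6.47% of all genes were 2-fold lower and 7.76% higher. The genes of the kinases that phosphorylate eIF4E were at 0.35 for Mknk1 (65.0 and 113) and -0.79 for Mknk2 (165 and 129). Regulators of eIF2 phosphorylation and recycling had a median of 0.23 over 14 genes, 12 of them above the median gene. Ppp1r15a and Bzw2 were at least 2-fold higher, 14.3% against 7.76% of all genes, and 0 were 2-fold lower, against 6.47%. Bzw2, which encodes a mimic of eIF5, had 32.1 and 91.8 (1.08) and passed the filter only through 3-NP. Of 3 mitochondrial translation factor genes, Mrrf had 26.6 and 75.3 (1.07, passing the filter only through 3-NP), Tufm was at 0.10 and Gfm1 at -0.36.

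**Figure D3:**
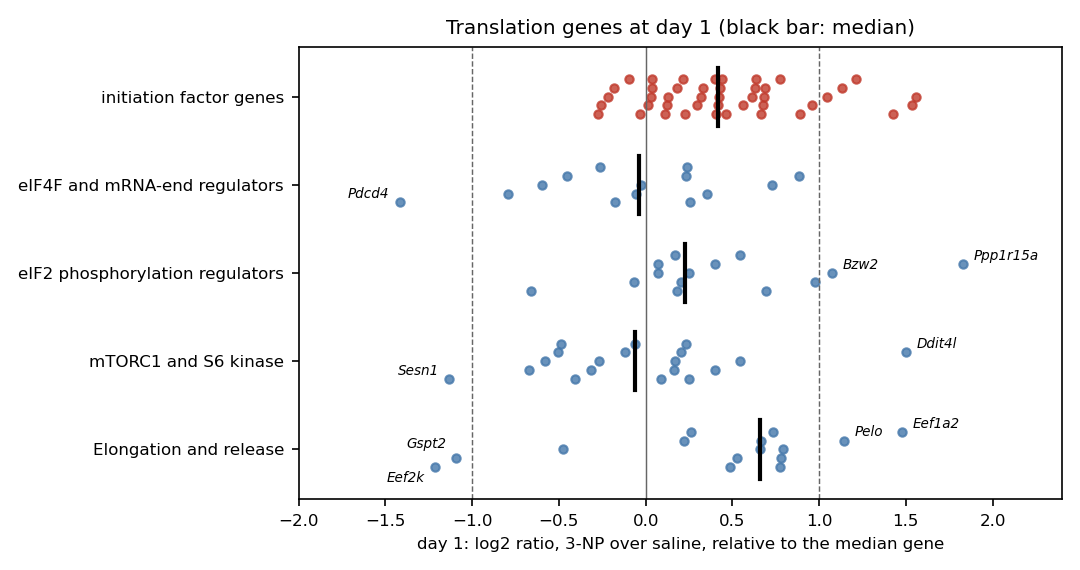
Relative log2 ratio at day 1 for the initiation factor genes (red) and 4 related gene lists (blue), 1 point per measured gene with the list median as a black bar and dashed lines 2-fold from the median gene. The medians are 0.42 for initiation factors, 0.66 for elongation and release, -0.04 for eIF4F regulators, 0.23 for eIF2 phosphorylation regulators and -0.06 for the mTORC1 list. In the eIF2 phosphorylation list 12 of 14 genes lie above the median gene. Pdcd4, Eef2k, Gspt2 and Sesn1, beyond the left dashed line, passed the filter only through saline. Ddit4l and Bzw2, beyond the right one, passed it only through 3-NP.

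At day 3 the initiation factor genes again lay mostly above the median gene. Of 18 measured members 15 lay above it, with a median of 0.34, and 10 of the 18 were within the probe set SD. Only Eif4e was at least 2-fold higher, 1 of 18 or 5.56% against 9.21% of all 3972 measured genes, and 6 members were at least 1.5-fold higher, 33.3% against 19.1%. Of those 6, Eif4e and Eif3a passed the filter only through the 3-NP array, where they are high, and with the filter on the mean signal the count was 4 of 16 against 17% of all genes. No member was 2-fold lower, against 8.18% of all genes, or 1.5-fold lower, against 19.9%. As deposited, 1 member was 2-fold higher against 10.9% of all genes and 8 were 1.5-fold higher against 23.2%, while 0 were 2-fold or 1.5-fold lower against 6.42% and 16%. Of the factors, eIF2B, eIF6 and the kinases had no probe set on this design, and Eif3h and Eif4g3 were at the floor in both arrays.

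The day 3 value of Eif4e is a bound, since its saline signal of 6.85 lay under the floor of 9.22. Its 3-NP signal was 21.8, at least 2.20-fold higher relative to the median gene, and the ratio came to 0.59 with the floor at the 40th percentile. The other members past 1.5-fold were Eif3a, with 13.5 in saline and 25.2 in 3-NP (0.80), Eif3j, with 43.9 and 79.3 (0.75), Eif4a2, with 47.4 and 84.7 (0.74), Eif4h, with 859 and 1461 (0.67), and Eif1a, with 144 and 240 (0.64). The Eif3a and Eif4e signals were near the dim end of the array.

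Eif1a was the member with the most probe sets at day 3. Besides the brightest, 1 probe set had 36.8 in saline and 101 in 3-NP (1.36) and another 16.3 and 37.4 (1.10). All 3 were above the median gene, and their mean of 1.02 would count the gene as 2-fold higher. Eif4h was also above it by both probe sets, the dimmer with 63.0 and 98.3 (0.54).

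Lower on the day 3 scale were Eif4a3, with 369 in saline and 574 in 3-NP (0.54), Eif3c, with 103 and 155 (0.49), and Eif2a, whose product is an initiator tRNA-binding factor distinct from eIF2, with 33.8 and 49.0 (0.44). Near the median gene lay Eif4e3, a cap-binding paralog, with 48.1 and 61.1 (0.25), Eif4enif1, with 126 and 151 (0.16), Eif3l, with 290 and 334 (0.10), Eif5b, with 82.0 and 93.8 (0.09), Eif4g2, with 521 and 586 (0.07), Eif3k, with 20.3 and 22.7 (0.06), and Eif5a2, the other eIF5A gene, with 100.3 and 101 (-0.08). Below it were Eif2s3, with 96.7 and 85.0 (-0.29), and Eif4g1, with 33.7 and 28.2 (-0.36), both within the probe set SD of 0.47. A further probe set of each gave 0.24 for Eif2s3 and 0.21 for Eif4g1, and the dimmer one of Eif5b gave -0.48 and that of Eif5a2 -0.29.

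**Figure D4:**
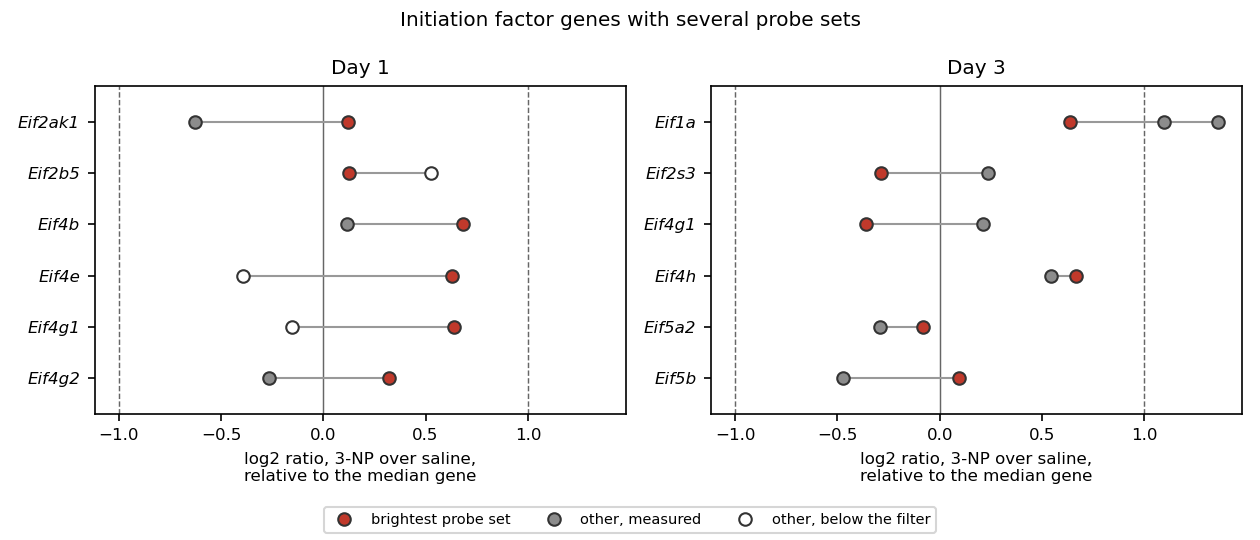
Relative log2 ratio of every probe set of the initiation factor genes that have several, at day 1 and day 3; red is the brightest probe set, grey another measured one and white one below the filter. The day 1 pairs of Eif2ak1, Eif4e, Eif4g1 and Eif4g2 and the day 3 pairs of Eif2s3, Eif4g1 and Eif5b straddle the median gene at 0.

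Agreement between probe sets of a member was limited. Of 3 members with 2 measured probe sets at day 1, 1 had both above or both below the median gene, and of 6 at day 3, 3 did. Over all genes with 2 measured probe sets the share was 71.5% of 744 at day 1 and 66.8% of 805 at day 3. Members 2-fold higher at day 1 had 1 probe set each on that design, so none could be compared there. Some members have near-identical relatives in RefSeq, such as Eif1a with Eif1ax and Eif2s3 with Eif2s3y, and whether a probe set tells them apart was not tested.

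Between the days, 15 members were measured on both designs and 13 of them lay above the median gene at both. Of the 13, Eif3a and Eif4e passed the day 3 filter only through the 3-NP array, where they are high. The day 1 values of Eif3a (0.04) and Eif4a2 (0.03) fell below 0 under some other centring or normalization. Among all 1246 genes measured at both days, 34.0% lay above it at both and 71.6% on the same side. Probe sets carried by both designs give the closest comparison. Eif4a3 was at 0.42 at day 1 and 0.54 at day 3, Eif4h at 0.40 and 0.67, and Eif4enif1 at 0.67 and 0.16. Over different probe sets Eif1a went from 1.43 to 0.64, Eif3j from 0.56 to 0.75, Eif4a2 from 0.03 to 0.74 and Eif3a from 0.04 to 0.80. The lower day 3 value of Eif1a rests on its brightest probe set, since the others gave 1.36 and 1.10. The leading day 1 genes Eif5a, Eif4a1, Eif6, Eif1ad and Eif3b were not measured at day 3, so whether their difference lasted was not analysed here.

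**Figure D5:**
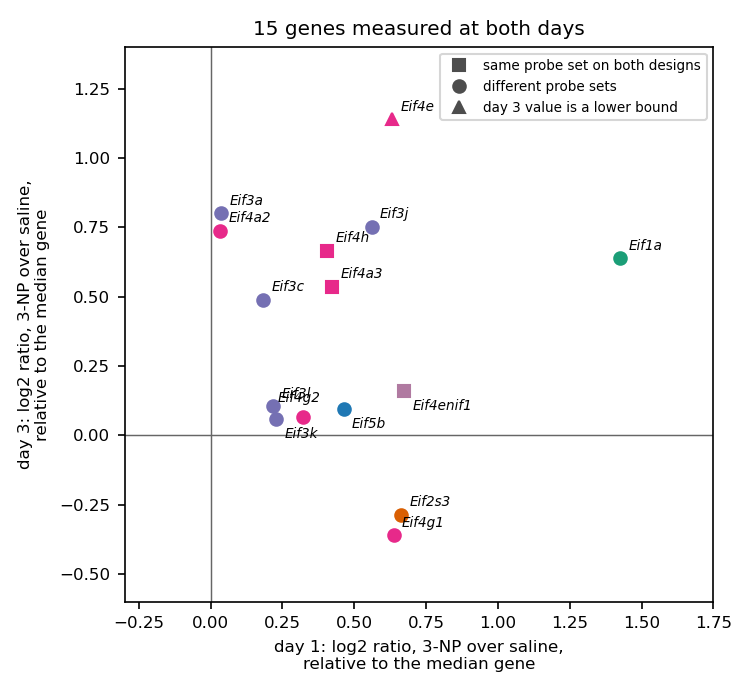
Relative log2 ratio at day 3 against that at day 1 for the 15 initiation factor genes measured on both designs, coloured by factor; squares use the same probe set on both days and the triangle is a lower bound. All but 2 points lie above 0 on both axes, and Eif2s3 and Eif4g1 lie below 0 at day 3. Eif3a and Eif4e passed the day 3 filter only through 3-NP.

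Related lists held few genes at day 3. Pdcd4 had 82.2 in saline and 47.3 in 3-NP by its brightest probe set (-0.90), and its other measured probe sets gave -0.79 and -0.01. Pabpc4, which encodes a poly(A)-binding protein, had 32.4 and 79.9 (1.20), after 135 and 303 at day 1 on another probe set (0.73). The mTORC1 regulator gene Sesn2 had 56.0 and 157 (1.38). Another Sesn2 probe set, below the filter and with saline under the floor, gave 0.30. Pabpc4 and Sesn2 were the only genes at least 2-fold higher in their lists. They made up 1 of 5 (20%) and 1 of 4 (25%) measured genes, against 9.21% of all genes. Of 6 mitochondrial translation factor genes, with a median of -0.50, 2 (Gfm2 and Mtrf1) passed the filter only through saline, none was 2-fold from the median gene and the mitochondrial initiation factor gene Mtif2 was lowest, with 147 and 81.2 (-0.95).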

How the data were processed

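Per the labels' protocols, 6 µg of total RNA gave biotinylated cRNA for Affymetrix arrays. The authors deposited MAS5 signal intensities, 1 per probe set, per the submitters' processing notes, which state no version, scaling target or detection call. Gene symbols came from the platform annotation, updated by gene identifier to RefSeq (GRCr8); promoter sequences are from RefSeq, GRCr8. Signals were floored at each array's 30th percentile (17.1 and 22.0 at day 1, 9.22 and 9.85 at day 3, saline and 3-NP), and genes were filtered at the 50th percentile in at least 1 array of the pair. The log2 ratios were computed from these and centred on the median gene. Where 1 of both signals was floored, the ratio is a bound. The calculation was tested on simulated data. With 1 array per group, no p-value was computed, and the number of arrays limits the precision. The members, lists, motifs and tests were chosen with earlier results of these data known. Values in full were given for members 1.5-fold from the median gene, the ends of each factor, all eIF2, eIF2B, kinase and eIF4E-binding genes, and members with several probe sets or days; other named genes were chosen after their values were seen. Python 3.11.15, pandas 2.3.3, numpy 2.4.6 and statsmodels 0.14.6 (lowess, span 0.4) were used. Alternatives covered centring, normalization, floor, filter, probe set summary and gene names.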

Additional observations from a re-analysis of the deposited data

Results flagged for a closer look

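For 2 members the 3-NP over saline difference had opposite signs on the 2 days, relative to the median gene. Eif2s3 was at 0.66 at day 1 and -0.29 at day 3, and Eif4g1 at 0.64 and -0.36. Each value rests on 1 array per group and on different probe sets, both day 3 values lie within the probe set SD of 0.47, and the difference between days was not tested. Another measured day 3 probe set of each gave 0.24 for Eif2s3 and 0.21 for Eif4g1, the same sign as at day 1, and the mean over probe sets was -0.04 and -0.09.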

How the results depend on the processing

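As deposited, without centring, the day 1 median of the members was 0.86, with 16 at least 2-fold and 30 at least 1.5-fold higher, since the median gene itself stood at 0.44. The day 3 count of 1 member at least 2-fold higher came to 0 with the floor at the 40th percentile, with a pseudocount of 16, with the filter on the mean signal and with the filter at the 70th percentile, and to 2 with the mean over probe sets. Under the other alternatives run, the members' median and their counts past 2-fold and 1.5-fold stayed within the probe set SD or 1.5 times the main count, and 0 members were 1.5-fold lower under any of them. The member median ranged from 0.38 to 0.49 at day 1 and from 0.21 to 0.36 at day 3 over the centred alternatives. Centring on the 100 probe sets of both designs put 33 of 43 members above 0 at day 1. Single members moved past the SD under other settings in 2 cases, Eif2ak1 to -0.25 with the mean over probe sets and Eif4e at day 3. No paired analysis was possible because each group holds 1 array.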
